A study of Mus musculus with 7 samples.

Results

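The Ifitm genes encode the interferon-induced transmembrane proteins, and 5 of them were followed here through 7 transcriptomes of sorted mouse blood stem cells. Ifitm1, Ifitm2, Ifitm3, Ifitm6 and Ifitm10 were chosen by name, out of 53458 genes with a transcript in the deposited tables. The cells were LT-HSCs (long-term haematopoietic stem cells), from which all blood lineages are renewed, and the donors were aged C57/BL6 mice. The sources used here give no age in months. Sorted cells carried CD150, cKit and Sca1, and were free of CD48, Flt3, Gr1, Mac1, CD3, B220 and Ter119. One group was wild type (WT, Srp72+/+, 4 libraries) and the other had lost 1 copy of Srp72, a gene for a protein of the signal recognition particle (Srp72+/-, 3 libraries). The labels name no separate control beyond WT and do not say how the allele was made or whether any mice were littermates.

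IFITM proteins are short membrane proteins of the cell surface and of endosomes and lysosomes, where they stiffen the membrane and hinder the fusion of enveloped viruses with the cell. Interferons raise the transcription of several family members through interferon-stimulated response elements (ISREs), yet stem cells of many tissues transcribe some members without interferon. In the mouse most of the family lies in a single cluster on chromosome 7. Ifitm6 is known from bone marrow and from cells of the macrophage lineage rather than from stem cells, and little is established about Ifitm10, the most divergent member.

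Levels are given on 2 scales. CPM are estimated reads relative to the scaled size of each library, and serve to compare libraries. TPM are corrected for transcript length, and serve to compare genes. The libraries held between 18054322 and 35247472 estimated reads, so the floor of 3 reads equalled 0.0908 to 0.191 CPM. Srp72 itself measured 99.4, 136, 103 and 88.2 CPM in WT 1 to 4 and 71.7, 45.6 and 109.6 CPM in Srp72+/- 1 to 3, so the groups overlapped and the targeted gene did not check the labels (log2 fold change -0.50, SE 0.32, unadjusted p = 0.159 in edgeR's quasi-likelihood test). Hlf, a stem cell transcription factor gene used below as the stem cell reference, was at 13.1 CPM in WT 2 and at 271 to 655 CPM in the other 6 libraries. The 26 HSC identity genes summed to 407 to 4569 CPM in WT, with the lowest sum in WT 2, and to 2449 to 4244 CPM in Srp72+/-. The 20 neutrophil genes summed to 426 to 48470 CPM in WT, with the highest sum in WT 2, and to 1751 to 16060 CPM in Srp72+/-, and no gene of either list was at 0 in any library. WT 2 therefore goes against the labelled cell type, and results that rest on it are given with and without it. In bulk RNA, fewer cells of a type and less RNA per cell cannot be told apart. Separate mice are implied by the design text but not stated for each library, so p-values measure the spread between these libraries.

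By group means, Ifitm3 and Ifitm2 were among the most abundant transcripts of the sorted cells, Ifitm6 and Ifitm1 lay below them, and Ifitm10 was nearly absent. On the length-corrected scale Ifitm3 was at 388 ± 98.3 TPM (SD, n = 4) in WT and 350 ± 105 TPM (SD, n = 3) in Srp72+/-. Ifitm2 was at 230.3 ± 29.5 and 230.3 ± 81.9 TPM. Ifitm3 exceeded Ifitm2 in 4 of 4 WT and 3 of 3 Srp72+/- libraries, by a factor between 1.08 (WT 2) and 2.02 (WT 4), so the order of these 2 neighbours held in every library. Averaged over 7 libraries, only 0.822% of the 20314 tested genes had a higher TPM than Ifitm3, and 1.27% a higher TPM than Ifitm2.

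The place of Ifitm6 did not hold library by library. It was the highest of the family in WT 2, at 550 TPM, and lay above Ifitm2 in Srp72+/- 1, at 219 against 146 TPM, so Ifitm2 exceeded it in 3 of 4 WT and 2 of 3 Srp72+/- libraries. Ifitm6 had the higher mean, at 195 ± 249 TPM in WT and 107 ± 106 TPM in Srp72+/-, against 145 ± 94.0 and 73.1 ± 33.2 TPM for Ifitm1 (SD, n = 4 and n = 3). Ifitm6 was nevertheless above Ifitm1 in only 1 of 4 WT libraries, WT 2, and in only 1 of 3 Srp72+/- libraries, Srp72+/- 1. Ifitm10 came last in all 7 libraries, at 0.433 ± 0.631 and 0.569 ± 0.351 TPM, with 78.2% of tested genes above it.

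**Figure D1:**
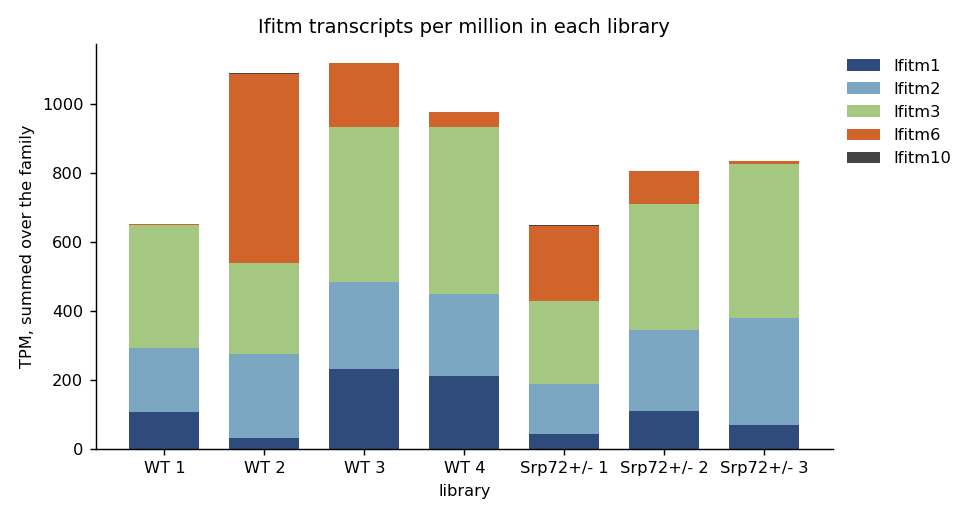
Stacked bars give the TPM of the 5 Ifitm genes in each of the 7 libraries (x axis: library; y axis: TPM summed over the family). Ifitm3 and Ifitm2 form most of the bar in 6 libraries, Ifitm6 makes up 50.5% in WT 2 and 0.184% in WT 1, and Ifitm10 is too low to see.

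The make-up of the family differed more between libraries than its total. The 5 genes together reached 650.1, 1089, 1117 and 976 TPM in WT 1 to 4 and 647, 804 and 833 TPM in Srp72+/- 1 to 3. Ifitm6 made up 0.184%, 50.5%, 16.6% and 4.51% of that total in WT 1 to 4 and 33.9%, 11.6% and 1.01% in Srp72+/- 1 to 3. The share of Ifitm1 was lowest where that of Ifitm6 was highest, at 2.80% in WT 2 and 6.51% in Srp72+/- 1, against 8.29% to 21.5% in the other 5 libraries. No share of the 5 genes passed a test between the genotypes (two-sided exact permutation tests over 35 splits, p = 0.229 to 0.886, with 0.0286 the smallest p possible).

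The start regions of the 4 clustered members are shown here because they differ in matches to the element through which interferon acts. Each window holds 250 bases before the RefSeq start and 30 from it, on GRCm38.p6, read 5′ to 3′ along the gene. Capitals mark matches of the ISRE core or the TATA box TATAAA, sought on both strands. Ifitm1 and Ifitm6 have no ISRE core in this window, Ifitm2 has 1 and Ifitm3 has 2.
Ifitm1 (chr7:140967826-140968105, plus strand): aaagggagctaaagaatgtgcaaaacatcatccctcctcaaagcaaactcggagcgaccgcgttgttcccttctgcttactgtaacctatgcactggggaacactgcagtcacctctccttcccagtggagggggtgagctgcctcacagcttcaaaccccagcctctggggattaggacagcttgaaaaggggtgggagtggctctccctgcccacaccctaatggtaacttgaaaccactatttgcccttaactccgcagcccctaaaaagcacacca
Ifitm2 (chr7:140955932-140956211, minus strand): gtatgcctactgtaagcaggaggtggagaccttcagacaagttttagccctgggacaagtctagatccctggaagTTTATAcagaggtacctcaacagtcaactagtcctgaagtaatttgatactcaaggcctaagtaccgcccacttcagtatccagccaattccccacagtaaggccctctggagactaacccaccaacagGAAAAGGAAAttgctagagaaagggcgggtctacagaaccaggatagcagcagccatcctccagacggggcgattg
Ifitm3 (chr7:141010715-141010994, minus strand): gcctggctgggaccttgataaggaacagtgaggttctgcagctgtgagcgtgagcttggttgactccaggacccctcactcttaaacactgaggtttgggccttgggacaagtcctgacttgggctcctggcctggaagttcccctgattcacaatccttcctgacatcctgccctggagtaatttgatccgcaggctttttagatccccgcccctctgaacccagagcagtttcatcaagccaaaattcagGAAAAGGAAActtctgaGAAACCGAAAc
Ifitm6 (chr7:141016863-141017142, minus strand): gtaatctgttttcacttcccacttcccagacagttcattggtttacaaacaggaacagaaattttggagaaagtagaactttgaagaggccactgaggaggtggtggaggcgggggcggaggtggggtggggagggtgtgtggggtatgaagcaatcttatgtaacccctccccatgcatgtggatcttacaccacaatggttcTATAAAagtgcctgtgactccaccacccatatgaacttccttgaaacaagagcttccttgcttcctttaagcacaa

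With the RefSeq start counted as position 0, the ISRE core of Ifitm2, GAAAAGGAAA, begins at position -46. The same 10 letters begin at position 2 of Ifitm3, where a further core, GAAACCGAAA, follows at position 19. GENCODE places both starts 26 bases further upstream, at which the core of Ifitm2 begins at -20 and those of Ifitm3 at 28 and 45. Ifitm6 has a TATA box at position -46, or -30 from the GENCODE start, and Ifitm2 has one on the opposite strand at position -175. An ISRE core was found in 3.28% of all 32851 RefSeq windows of this length and a TATA box in 13.1%. Of 40 interferon-stimulated genes with a window, 18 (45%) had an ISRE core in at least 1 window, a share per gene and not per window.

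The other motifs searched on both strands were the gamma-activated site TTCNNNGAA (7.83% of windows), the C/EBP site TTGCNNAA (10.4%), the PU.1 site GAGGAAGT (2.82%) and the GC box GGGCGG (34.7%). Ifitm3 has the gamma-activated letters TTCTGAGAA at position 13, overlapping the later ISRE core, and Ifitm6 has TTCCTTGAA at position -10. Ifitm2 holds 2 GC boxes, Ifitm3 and Ifitm6 hold 1 each, and neither the C/EBP nor the PU.1 letters occur in any of the 4 windows. The Ifitm1 window matched none of the 6 motifs. Such matches describe letters in a window and are not measured binding. All 5 members matched the RefSeq table by symbol, and Ifitm10, with 3 listed starts, had no ISRE core in any of the windows.

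Ifitm3, the member best known for blocking virus entry, was the most even of the family across libraries. Its gene (ENSMUSG00000025492, protein-coding, chromosome 7, 141009586 to 141010770, minus strand) measured 368, 417, 412 and 511 CPM in WT 1 to 4 and 224, 298 and 562 CPM in Srp72+/- 1 to 3. Srp72+/- 1 and Srp72+/- 2 lay below every WT library and Srp72+/- 3 lay above every WT library. The means were 427 ± 60.0 CPM (SD, n = 4) and 362 ± 178 CPM (SD, n = 3). The log2 fold change of Srp72+/- against WT was -0.24 (SE 0.33), short of the threshold (adjusted p = 0.9998 from the quasi-likelihood fit of edgeR), and the two-sided exact permutation test gave p = 0.429. Its highest library exceeded its lowest 2.51-fold, and 69.1% of tested genes varied more. Leaving out both WT 2 and Srp72+/- 1 gave 0.002, and leaving out Srp72+/- 3 gave -0.72 (unadjusted p = 0.0207, adjusted p = 1.0), where 0.943% of tested genes were lower with an unadjusted p under 0.05.

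Ifitm2, a close relative of Ifitm3 with the same ISRE letters near its start, followed Ifitm3 across the libraries. The gene (ENSMUSG00000060591, protein-coding, chromosome 7, 140954837 to 140955987, minus strand) measured 183, 364, 218 and 240.0 CPM in WT 1 to 4. It measured 129, 176 and 363 CPM in Srp72+/- 1 to 3, so the highest values of the groups were nearly equal. Ifitm2 and Ifitm3 correlated with r = 0.842 (two-sided exact permutation p = 0.0167, adjusted over 10 pairs of members 0.149, n = 7) and rho = 0.893 (exact permutation p = 0.0123). Without WT 2 the correlation was 0.942 (exact permutation p = 0.00417, adjusted 0.0417, n = 6), and without the 2 libraries farthest from the median of Ifitm2, WT 2 and Srp72+/- 1, it was 0.896 (n = 5). The TPM ratio of the pair was 1.70 ± 0.421 in WT (SD, n = 4) and 1.54 ± 0.0986 in Srp72+/- (SD, n = 3), a difference that did not pass an exact permutation test (p = 0.743). The log2 fold change of Ifitm2 was -0.17 (SE 0.39, adjusted p = 0.9998 in edgeR). It was 0.06 without WT 2, 0.08 without Srp72+/- 1 and 0.34 without both, and -0.73 without Srp72+/- 3, so its direction is not fixed by these libraries. Reads of Ifitm2 and Ifitm3 may be exchanged in part, since their transcripts are similar and the division was made by the quantification. In GENCODE the readthrough gene Gm45717 shares most of the first exon of Ifitm2, and it was at 0.813 to 5.61 CPM.

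**Figure D2:**
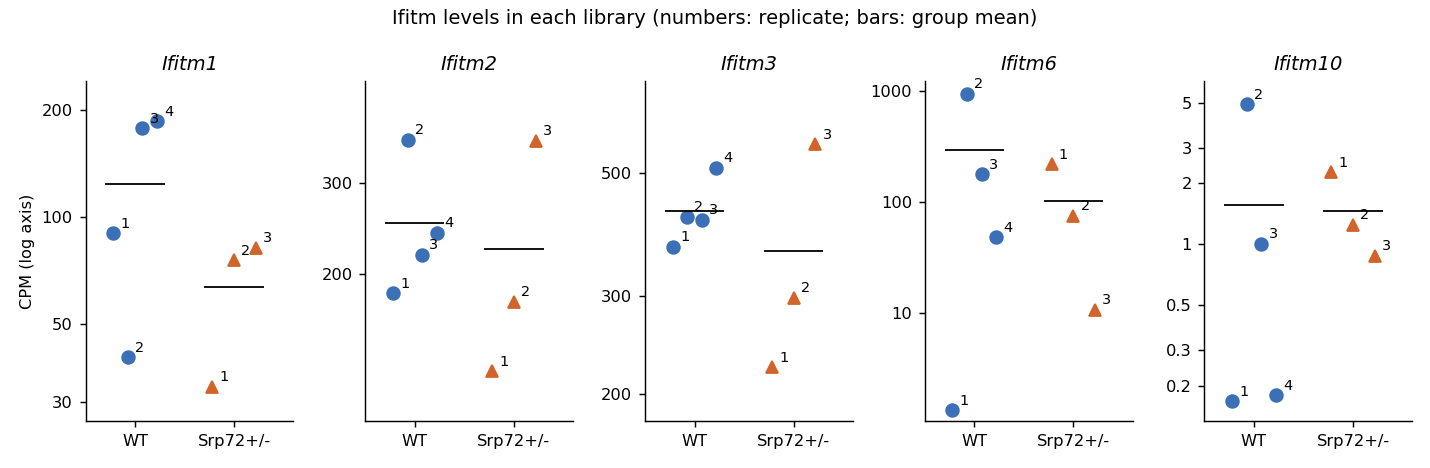
Points give the CPM (log axis, 1 panel per gene) of each Ifitm gene in the 4 WT libraries (circles) and 3 Srp72+/- libraries (triangles), with the replicate number beside each point and a bar at the group mean. The groups overlap in all 5 panels, and Ifitm6 spans 1.34 to 941 CPM.

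Ifitm1 had the lowest mean in Srp72+/- relative to WT after Ifitm6, and its comparison turned on WT 2. The gene (ENSMUSG00000025491, protein-coding, chromosome 7, 140967221 to 140969825, plus strand) measured 90.0, 40.2, 178 and 186 CPM in WT 1 to 4 and 33.2, 75.5 and 81.8 CPM in Srp72+/- 1 to 3. Every Srp72+/- library lay below WT 1, WT 3 and WT 4, and WT 2 lay between Srp72+/- 1 and Srp72+/- 2. The means were 123 ± 70.4 CPM (SD, n = 4) and 63.5 ± 26.4 CPM (SD, n = 3), which gave a log2 fold change of -0.96 (SE 0.55), or 0.515 of WT with a 95% confidence interval of 0.215 to 1.23. It did not pass the test (edgeR, adjusted p = 0.9998, unadjusted p = 0.118), and the exact permutation p was 0.2. With 7 libraries 0% of the 20314 tested genes passed a false discovery rate (FDR) of 0.05, 1.8% (365 genes) had an unadjusted p under 0.05 (0.788% lower and 1.01% higher), and in 3.57% the groups did not overlap (1.49% lower and 2.08% higher). None of the 5 Ifitm genes met any of these. DESeq2 called 9 genes and limma voom 0, and no Ifitm gene was among them.

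Without WT 2 the groups of Ifitm1 did not overlap, at 151 ± 53.1 CPM in WT (SD, n = 3) and 63.5 ± 26.4 CPM in Srp72+/- (SD, n = 3). The share of tested genes lower in Srp72+/- without overlap was then 5.25%. Hlf was among them, at 557, 407 and 655 CPM in WT 1, 3 and 4 and 271, 387 and 284 CPM in Srp72+/- 1 to 3. The log2 fold change of Ifitm1 was -1.25 (edgeR, unadjusted p = 0.0106, adjusted p = 0.977), where 2.23% of genes were lower with an unadjusted p under 0.05. Without both WT 2 and Srp72+/- 1 it was -0.94 (unadjusted p = 0.0237, background 1.92%). Stem cell genes leaned the same way in these 6 libraries: 22 of the 26 HSC identity genes had lower and 4 had higher fitted values, 0 passed, and 8 were lower with an unadjusted p under 0.05, the median log2 fold change being -0.46, against 0.04 over all genes. With 7 libraries the same list stood at 12 higher and 14 lower, with a median of -0.11. Erythroid genes went the other way in the 6 libraries, with 14 of 14 higher (median log2 fold change 3.30). Of these, 8 had an unadjusted p under 0.05 in edgeR, beside 519 higher among all 19856 genes of that fit. Their sum was 7493 CPM in Srp72+/- 1, against 1749 and 612.5 CPM in Srp72+/- 2 and 3 and 493 to 723 CPM in WT 1, 3 and 4. Without both WT 2 and Srp72+/- 1, 14 were again higher (median 1.665). The part of erythroid genes in the Ifitm1 difference was not tested. Relative to Hlf, Ifitm1 reads amounted to 16.1%, 306%, 43.7% and 28.3% in WT 1 to 4 and to 12.2%, 19.5% and 28.8% in Srp72+/- 1 to 3, and this ratio overlapped between the groups with and without WT 2. Over all 7 libraries, WT 2 included, its difference did not pass an exact permutation test (p = 0.286). Without WT 2 the ratio was not tested. In TPM the ratio of Ifitm1 to Hlf was 0.331, 5.11, 0.740 and 0.612 in WT 1 to 4 and 0.214, 0.349 and 0.321 in Srp72+/- 1 to 3. There only WT 1 lay within the range of Srp72+/- (exact permutation p = 0.0857 over all 7 libraries). The part of stem cell content in the Ifitm1 difference was not tested beyond these ratios.

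Most Ifitm1 reads were assigned to Ifitm1-202, a 560-base transcript whose share of the gene's reads had a lower mean in Srp72+/-. That share was 72.6%, 74.0%, 73.4% and 74.2% in WT 1 to 4 and 71.9%, 58.3% and 52.3% in Srp72+/- 1 to 3. The groups did not overlap, though Srp72+/- 1 (71.9%) lay close to WT 1 (72.6%). The means were 73.5% ± 0.688 (SD, n = 4) and 60.9% ± 10 (SD, n = 3), and the exact permutation p of 0.0286 was the smallest that 35 splits allow. How often the shares of transcripts of other genes separate in this way was not tested. Adjusted over the 12 transcripts of Ifitm1, Ifitm6 and Ifitm10 it was 0.343, a correction that no single transcript could pass with so few splits, and 2 of the 12 were at 0 in every library. On the TPM scale the share of Ifitm1-202 overlapped between groups (64.6% to 83.1%, exact permutation p = 0.114). Ifitm1-203, which starts furthest upstream, held 0% to 14.6% of the reads. The transcripts share most of their sequence, so the division between them is an estimate.

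Ifitm6 tracked the neutrophil gene S100a8, which encodes a subunit of calprotectin, across both genotypes. The gene (ENSMUSG00000059108, protein-coding, chromosome 7, 141015699 to 141017924, minus strand) measured 1.34, 941, 177 and 48.4 CPM in WT 1 to 4 and 219, 75.1 and 10.7 CPM in Srp72+/- 1 to 3. WT libraries held both the lowest and the highest value, 701-fold apart, and only 0.551% of tested genes varied more. In WT 1 the gene had 24 reads. S100a8 ran in the same order, at 19.2, 8423, 1985 and 604 CPM in WT 1 to 4 and 2355, 853 and 161 CPM in Srp72+/- 1 to 3. The correlation was r = 0.9992 (two-sided exact permutation p = 0.000198, the smallest that 7 libraries allow, adjusted over 10 relations 0.00198) and rho = 1 (exact permutation p = 0.000397).

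The relation of Ifitm6 to S100a8 did not rest on the extreme libraries. It was 0.9996 without WT 1 and WT 2 (exact permutation p = 0.00833, the smallest that 5 libraries allow, n = 5) and 0.9992 without WT 2 (adjusted 0.0139, n = 6), and 0% of the other tested genes had a higher r with S100a8. Per read of S100a8, Ifitm6 varied far less: it amounted to 6.98%, 11.2%, 8.89% and 8.0% of the S100a8 CPM in WT 1 to 4 and to 9.31%, 8.80% and 6.64% in Srp72+/- 1 to 3. The ratio tended to rise with S100a8, being lowest in Srp72+/- 3 and WT 1, which had the least S100a8, and highest in WT 2, which had the most. This ratio spanned 1.68-fold where the gene itself spanned 701-fold, and its difference between genotypes did not pass the test (8.76% ± 1.79, SD, n = 4, and 8.25% ± 1.42, SD, n = 3, exact permutation p = 0.743). The fitted log2 fold change of Ifitm6 was -1.52 with a 95% confidence interval of -5.28 to 2.24 (edgeR, adjusted p = 0.9998), 0.44 without WT 2 and -0.82 without both WT 2 and Srp72+/- 1. Neutrophil genes ran with it: of the 20, 20 had lower fitted values in Srp72+/- with 7 libraries (median log2 fold change -0.82) and 20 had higher ones without WT 2 (0.85), and 0 passed in either fit. The medians over all tested genes were -0.01 and 0.04. This turn was not particular to myeloid genes, since the B cell list had medians of -0.49 and 1.88. Not every list turned: that of HSC identity had -0.11 and -0.46. The transcript Ifitm6-201 held 73.2% to 100% of the gene's TPM, with no difference between genotypes that passed (exact permutation p = 0.857).

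Ifitm10 was at or near the floor in 2 libraries and low in all. It lies apart from the cluster, 1308 kb toward higher coordinates (ENSMUSG00000045777, protein-coding, chromosome 7, 142325837 to 142373753, minus strand), and measured 0.168, 4.91, 1.005 and 0.179 CPM in WT 1 to 4 and 2.27, 1.246 and 0.877 CPM in Srp72+/- 1 to 3. WT 1 had 3 reads and WT 4 had 4, so their difference from the other libraries is set by a handful of reads. These were largely reads of Ifitm10-205, which is annotated as a processed transcript and not as protein-coding. It held 100% of the gene's reads in WT 1, 57.4% in WT 3 and 3.01 reads in WT 4. Its share was 14.8% in WT 2 and 21.0% to 46.3% in Srp72+/-. The protein-coding transcripts of Ifitm10 were not tested alone against Hlf or S100a8. The log2 fold change of the whole gene was -0.09 (SE 1.14, adjusted p = 0.9998 in edgeR), and 1.68 without WT 2. Levels ran against Hlf (r = -0.794, two-sided exact permutation p = 0.00317, adjusted over 10 relations 0.0159; rho = -0.857, exact permutation p = 0.0238) and with S100a8 (r = 0.80, exact permutation p = 0.0302, adjusted 0.101; rho = 0.929, exact permutation p = 0.00675). Without WT 2 neither passed after adjustment (r = -0.889, adjusted exact permutation p = 0.201, and r = 0.693, adjusted exact permutation p = 0.278, n = 6). Without the 2 libraries farthest from the anchor's median the values were -0.826 and 0.424 (n = 5). The overlapping gene Gm49369 spans its start and shares part of an exon with it, and was at 7.85 to 21.8 CPM, so some Ifitm10 reads may belong to it.

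Set against both references, the members fell into different positions. Ifitm6 ran with S100a8 and, less closely, against Hlf (r = -0.631, rho = -0.679, two-sided exact permutation p = 0.168 and 0.110, adjusted over 10 relations 0.337 for r). Ifitm1 was the only member with a positive r with Hlf over 7 libraries on the CPM scale, at 0.612 (exact permutation p = 0.115, adjusted 0.287), and its ranks followed Hlf more closely (rho = 0.893, exact permutation p = 0.0123, adjusted 0.041). On log2(TPM + 1) its r with Hlf was 0.722 (exact permutation p = 0.00198, adjusted 0.00992), and that of Ifitm3 was 0.577 (exact permutation p = 0.163). TPM were not rescaled between libraries as CPM were. Ifitm3 was at 417 and 412 CPM in WT 2 and WT 3, but at 264 and 448 TPM. How far such shifts enter r on the TPM scale was not tested. The CPM-based r of Ifitm1 with Hlf was 0.554 without WT 2 and WT 4 (n = 5) and 0.708 without WT 2 (n = 6, adjusted exact permutation p = 0.278), while 21.7% of tested genes had a higher r with Hlf. Its r with S100a8 was -0.321 (rho = -0.571, exact permutation p = 0.486 and 0.2). Without WT 2, Ifitm1 and Hlf were both lower in each Srp72+/- library than in any WT library. The part of the genotype groups in their correlation was not tested.

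Over 7 libraries no correlation of Ifitm2 or Ifitm3 with either reference passed the test. Their r with Hlf was -0.532 and -0.0295 (rho = -0.143 and 0.143, exact permutation p between 0.273 and 0.932). Their r with S100a8 was 0.102 and -0.233 (rho = 0.0357 and -0.286, exact permutation p between 0.556 and 0.963), which became -0.863 and -0.743 without WT 1 and WT 2 (n = 5, exact permutation p = 0.075 and 0.150). Neither was lowest in WT 2, the library poorest in Hlf. On the CPM scale Ifitm2 was about as high there as in Srp72+/- 3 (364 and 363 CPM). On the TPM scale it was at 243.6 in WT 2, below 251.6 in WT 3 and 309.8 in Srp72+/- 3, and its r with Hlf was -0.109 on log2(TPM + 1).

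**Figure D3:**
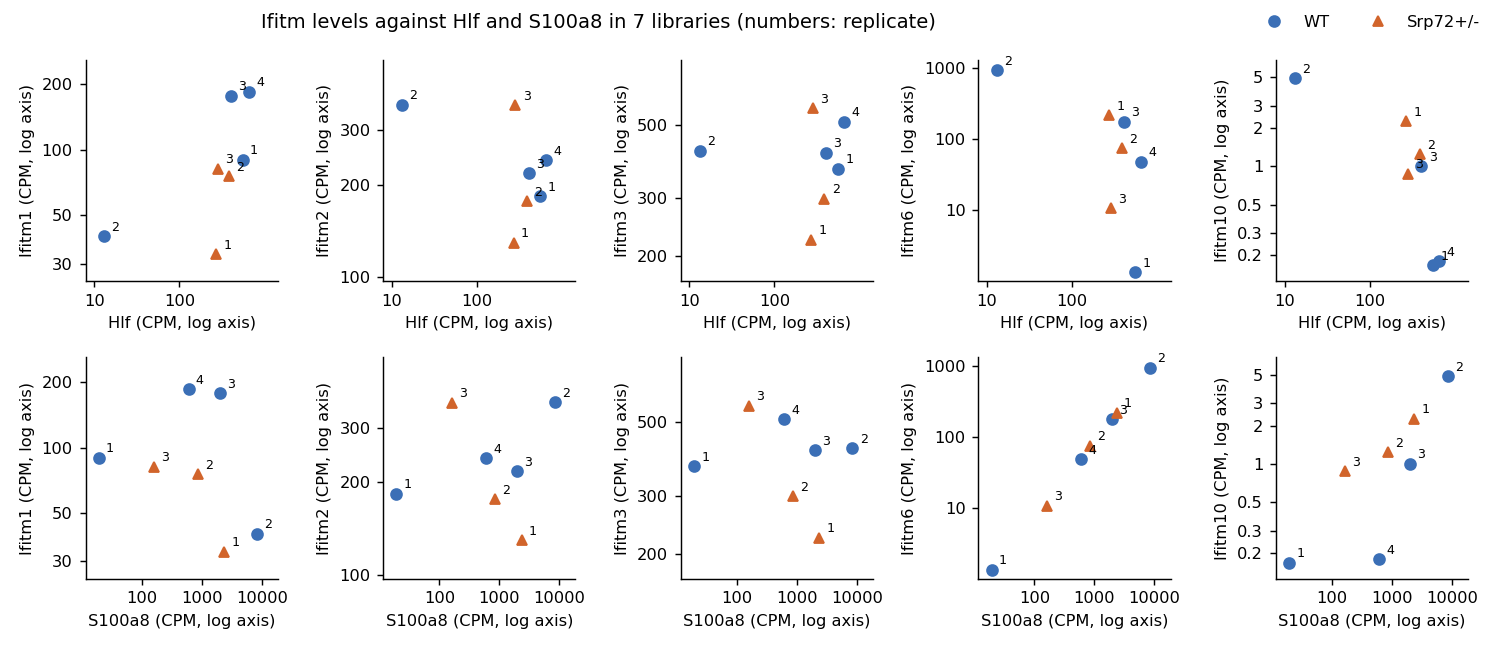
Each panel plots the CPM of an Ifitm gene (y, log axis) against the CPM of Hlf (upper row) or S100a8 (lower row; x, log axis) in 7 libraries, circles for WT and triangles for Srp72+/-, numbered by replicate. Ifitm6 forms a line with S100a8 (r = 0.9992), and WT 2 stands alone at 13.1 CPM of Hlf.

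Genes with the most similar profile were sought among 10116 named protein-coding genes with a mean of at least 5 CPM, by r over 7 libraries. For Ifitm6 these were S100a8 (0.999), Csf1r, the receptor gene of monocytes and macrophages (0.998), and S100a9, the partner of S100a8 in calprotectin (0.996), and the same 3 came first without WT 2. For Ifitm1 they were Jtb (0.977), Car5b (0.975) and Sema4b (0.970), replaced by Neto2, Ubl7 and Use1 without WT 2. For Ifitm2 they were Mogs (0.974), Gpr137 (0.971) and Tmem129 (0.969), replaced by Fam78a (0.994), Il15ra, a cytokine receptor gene (0.993), and Hdac10 (0.99) without WT 2. For Ifitm3 they included Hsp90ab1, a cytosolic chaperone gene (0.982), and Plcg2 (0.972), replaced by Timm10, Zfp629 and Rsl1. For Ifitm10 they were Plekhg3 (0.983), Lgals1 (0.980) and C2cd5 (0.980), of which the last 2 were again among the first 3 without WT 2. Only for Ifitm6 did all 3 genes stay when that library was left out. Values of r this high are common when the best of so many genes is taken over 7 libraries, and they are given as a description.

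The genes that receive and pass on interferon signals gave no call between genotypes. Of 22 receptor and signalling genes, 8 leaned higher and 14 lower in Srp72+/- (median log2 fold change -0.16), beside 10010 higher and 10304 lower and a median of -0.01 over all 20314 tested genes. None of the 22 passed in edgeR, in DESeq2 or in voom, and 0 had an unadjusted p under 0.05 in edgeR. The median of the list was -0.03 without WT 2. Ifnar1, a chain of the type I interferon receptor, measured 51.8 ± 10.7 CPM in WT (SD, n = 4) and 45.5 ± 4.94 CPM in Srp72+/- (SD, n = 3). Ifngr1, a chain of the interferon gamma receptor, measured 67.1 ± 44.9 and 45.5 ± 13.9 CPM. Irf7, an amplifier of the type I response, measured 14.4 ± 5.68 and 9.53 ± 3.26 CPM (log2 fold change -0.60, SE 0.42). Irf9, the DNA-binding part of the complex that recognises ISREs, measured 45.1 ± 11.2 and 48.4 ± 7.57 CPM. Il10rb (-0.70, SE 0.51) and Socs1 (-1.05, SE 0.83), a feedback inhibitor of the pathway, did not pass either.

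Other interferon-stimulated genes were evenly divided. Of 53 tested, 29 leaned higher and 24 lower (median log2 fold change 0.06), and 0 passed or had an unadjusted p under 0.05 in edgeR. Leaving out WT 2 moved that median to -0.02, and leaving out Srp72+/- 3 moved it to -0.19. Sp110 was the only one whose groups did not overlap, at 62.6 ± 2.23 CPM in WT (SD, n = 4) and 77.8 ± 6.56 CPM in Srp72+/- (SD, n = 3), with a log2 fold change of 0.32 (SE 0.18, unadjusted p = 0.123 in edgeR), beside 2.08% of all tested genes that were higher without overlap. Oasl1 reached 7.40 CPM in Srp72+/- 1 and 1.10 to 2.15 CPM elsewhere. Tap1, a peptide transporter gene of antigen presentation, reached 165 CPM in Srp72+/- 3 and 37.5 to 73.2 CPM elsewhere. Parp9 measured 39.6 ± 15.4 and 26.7 ± 6.23 CPM.

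Ifitm3 and Ifitm2, the members with ISRE letters at their start, had no correlation with the interferon-stimulated list that passed the test, but r turned on WT 2. Against the mean log2 CPM of the 53 genes, r was 0.276 for Ifitm3, -0.231 for Ifitm2, 0.626 for Ifitm1, -0.67 for Ifitm6 and -0.844 for Ifitm10 (rho = 0.536, 0.143, 0.75, -0.75 and -0.857). The two-sided exact permutation p for r was 0.551, 0.644, 0.126, 0.104 and 0.0115 in that order, and the smallest adjusted over the 5 relations was 0.0575. Without WT 2 the r of Ifitm3 was 0.759 and that of Ifitm2 was 0.606 (exact permutation p = 0.0792 and 0.212, adjusted over the 5 relations 0.271 and 0.354, n = 6). Without WT 2 and WT 4 the values were 0.741 and 0.712 (exact permutation p = 0.158 and 0.175, n = 5). This relation was added after the data were seen.

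Genes that act beside the IFITM proteins at membranes gave no call either. Of 16 tested genes of virus entry restriction and of IFITM partners, 6 leaned higher and 10 lower (median log2 fold change -0.08), and 0 had an unadjusted p under 0.05 in edgeR. With WT 2 left out that median became 0.02, and with Srp72+/- 3 left out -0.32. Cd63, a tetraspanin of late endosomes, measured 93.4 ± 26.7 CPM in WT (SD, n = 4) and 60.5 ± 9.16 CPM in Srp72+/- (SD, n = 3), with a log2 fold change of -0.63 (SE 0.29, unadjusted p = 0.058, adjusted p = 0.9998 in edgeR). Osbp, an oxysterol-binding protein gene, measured 68.3 ± 16.6 and 49.3 ± 12.9 CPM. Vapb, whose product binds OSBP at the endoplasmic reticulum, measured 16.6 ± 1.805 and 20.5 ± 1.805 CPM, and the groups of all 3 overlapped.

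**Figure D4:**
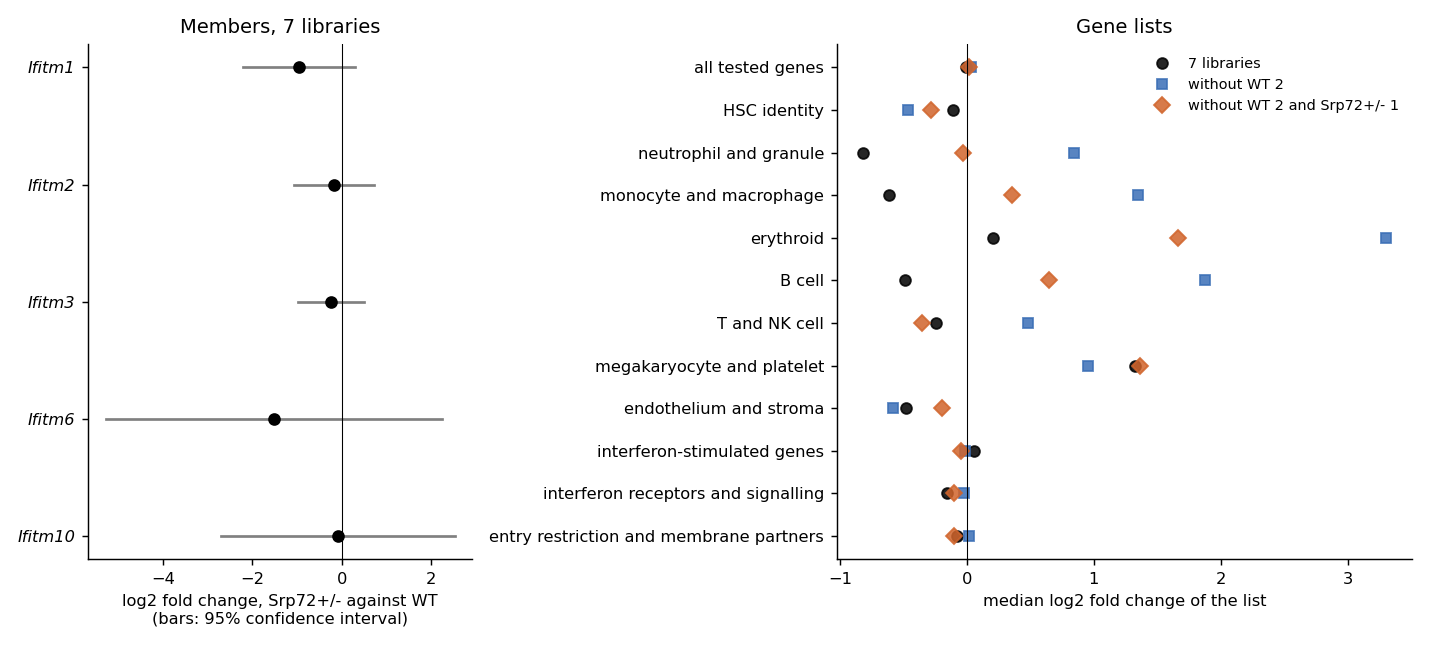
Left, log2 fold change of Srp72+/- against WT for the 5 Ifitm genes with 95% confidence intervals, all of which include 0. Right, median log2 fold change of each gene list (x axis) with 7 libraries, without WT 2, and without WT 2 and Srp72+/- 1: the interferon lists stay between -0.16 and 0.06, while the neutrophil list runs from -0.82 to 0.85.

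The Ifitm cluster spans 69.0 kb of chromosome 7 (140948958 to 141017924 on GRCm38), with Ifitm1 on the plus strand and Ifitm5, Ifitm2, Ifitm3 and Ifitm6 on the minus strand. Ifitm6 lies next to Ifitm3 but ran differently across the libraries. Ifitm3 and Ifitm6 correlated with r = -0.251 (rho = -0.286, two-sided exact permutation p = 0.593 and 0.556), and r was 0.017 without Srp72+/- 1 and Srp72+/- 2 (n = 5). Of the 2 family genes that are no members here, Ifitm5, a gene of bone-forming cells, was at 0.106 to 2.58 CPM. Ifitm7, on chromosome 16, was at 1.85 to 10.3 CPM (log2 fold change 0.11, SE 0.67).

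The flanking genes Bet1l, Ric8a, Sirt3, Psmd13, Pgghg, B4galnt4, Pkp3 and Sigirr were all between 1.17 and 76.6 CPM. All 8 overlapped between genotypes and none passed the test. Sigirr, an inhibitory receptor gene of innate immunity, measured 15.7, 5.10, 25.3 and 30.3 CPM in WT 1 to 4 and 11.1, 23.5 and 12.4 CPM in Srp72+/- 1 to 3. Sirt3, a mitochondrial deacetylase gene, measured 9.31 CPM in WT 2 and 24.1 to 49.9 CPM elsewhere. Both were thus lowest in WT 2, the library lowest in Hlf, as were Ric8a (24.8 CPM), Pgghg (16.6 CPM) and B4galnt4 (2.81 CPM). Bet1l and Pkp3 were not, and Psmd13 was highest in WT 2 (26.2 CPM). The r with Hlf of the flanking genes lowest in WT 2 ran from 0.688 (Pgghg) to 0.916 (Sirt3), beside 0.612 for Ifitm1. Ifitm2 was at 364 CPM in WT 2, about as high as in Srp72+/- 3 (363 CPM), but was not highest in WT 2 in TPM. Next to Ifitm10, Ctsd, the cathepsin D gene, was at 113 CPM in WT 2 and 51.9 to 77.1 CPM elsewhere.

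**Figure D5:**
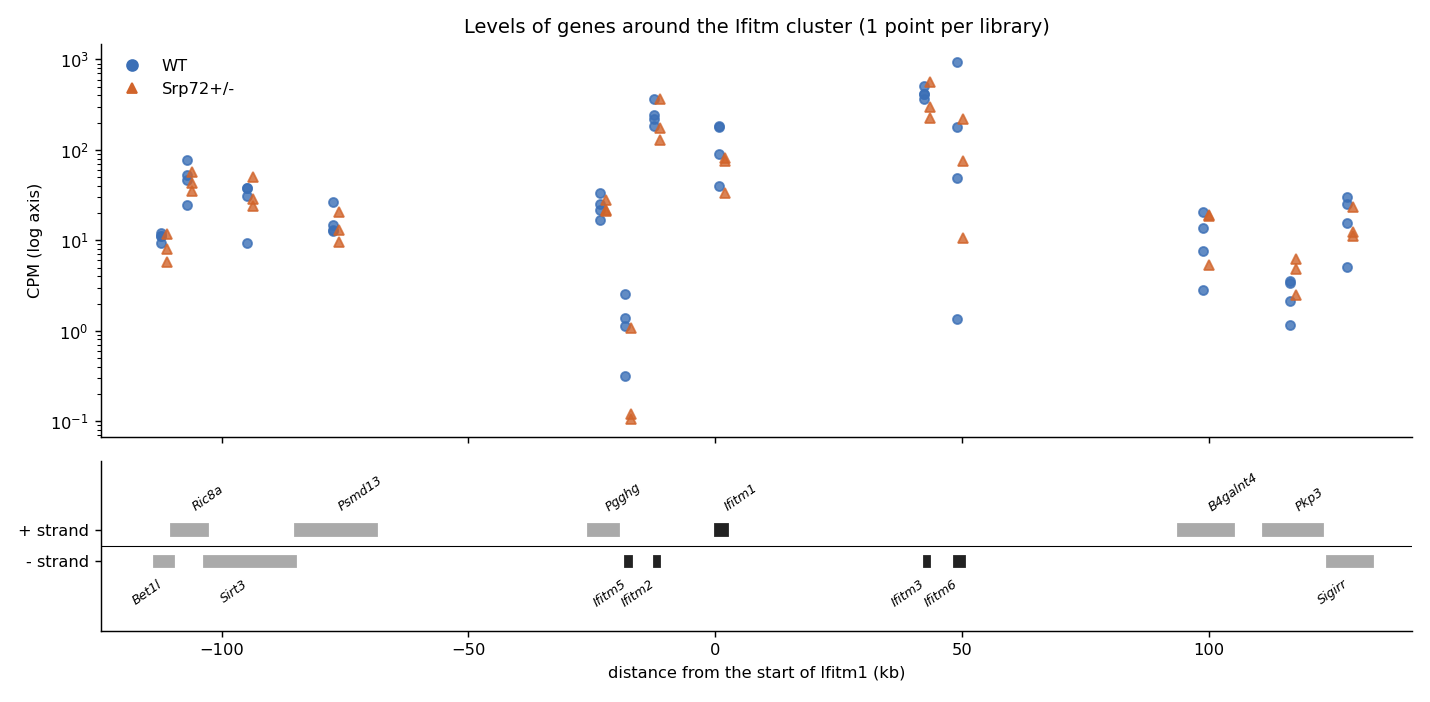
Upper panel, CPM (log axis) in each library (circles WT, triangles Srp72+/-) of the tested named genes around the Ifitm cluster. Lower panel, their positions by strand (black, Ifitm genes; grey, others), with the x axis in kb from the start of Ifitm1. Among the genes shown, Ifitm6 has the widest spread of points and Ifitm3 a narrow one.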

How the data were processed

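RNA was measured in 7 libraries of sorted LT-HSCs, 4 WT and 3 Srp72+/-, grouped by their titles. Per the labels' protocols, a Qiagen kit yielded the RNA, the NuGEN Ovation system amplified it and a TruSeq kit made the libraries; amplification of small inputs can enlarge differences between libraries. Per transcript, the deposited tables give expected counts (estimated, not whole numbers) and TPM, made with Salmon 0.12.0 per the submitters' processing notes, where GRCm38.p6 and mm10 are the builds named. Neither the transcript release nor the strand setting is stated in the labels, so reads of overlapping genes and of similar Ifitm transcripts are uncertain.

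Of 136288 transcripts, 136176 matched GENCODE M21, and the 112 others (0.0413% to 0.0622% of the reads) were left out. Estimated counts and TPM were summed per gene, and the counts were rounded. Of 53458 genes, 20314 passed filterByExpr of edgeR (minimum count 10, minimum total 15), among them all 5 Ifitm genes. Libraries were scaled by TMM. The comparison of genotypes used edgeR 4.0.16 in R 4.3.3 (quasi-likelihood test, robust, no covariate), adjusted by Benjamini-Hochberg over all tested genes, with a threshold of 0.05. Exact permutation tests used log2 CPM with a prior count of 2 over 35 splits or all orders of the libraries. The procedure was tested on simulated data. Promoter windows are those of RefSeq. Read floors cover counting error only.

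Members and gene lists were chosen with earlier results of these data known. Named genes are the members, the 3 most alike protein-coding genes of each, up to 4 genes with the smallest p per list, neighbours within 100 kb, and Srp72, Hlf and S100a8; Ifnar1 and Irf9 were added after their values were seen, and some genes are not reported here. Alternatives were RLE and upper-quartile scaling, no filter and a stricter one (a mean of 10 counts and 1 CPM in 3 libraries), a non-robust fit, an offset for length, only protein-coding genes, DESeq2 1.42.0, voom with quality weights in limma 3.58.1, the replicate number as a block, an FDR of 0.1, another prior count (0.5), log2(TPM + 1), ranks, and libraries left out. The replicate numbers share no stated source. Relations to the interferon-stimulated list and list medians without libraries were added after the data were seen.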

Additional observations from a re-analysis of the deposited data

How the results depend on the processing

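The direction of Ifitm1 was lower in Srp72+/- in all 18 alternatives, with no adjusted p past the threshold, and its log2 fold change ranged from -1.248 to -0.66 with 1 library left out. Other directions turned. Ifitm2 was at 0.338 and Ifitm3 at 0.002 without both WT 2 and Srp72+/- 1. With 1 library left out, Ifitm2 ranged from -0.725 to 0.082, Ifitm3 from -0.717 to -0.004, Ifitm6 from -2.806 to 0.435 and Ifitm10 from -0.586 to 1.682. Voom gave 1.618 for Ifitm6 and 1.941 for Ifitm10, and Ifitm10 was also turned by upper-quartile scaling (0.002) and by leaving out both libraries (1.222). The cause was not tested.

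The number of genes called was 9 with DESeq2, and 0 to 1 with 1 library left out, the 1 without WT 4. Same-numbered libraries correlated with r = -0.316, -0.162 and 0.00177 in their deviations from the group means. So few pairs cannot settle whether equal numbers mark a shared source. With the replicate block 0 genes were called, Ifitm1 was at -0.579, and Ifitm10 turned to 0.242.

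Of the relations, that of Ifitm1 with Hlf passed on ranks (rho 0.893) and on log2(TPM + 1) (0.722), a scale not adjusted between libraries. It did not pass as r of log2 CPM, which ranged from 0.550 to 0.789 with 1 library left out. Ifitm6 with S100a8 was at 0.9996 with 5 libraries, where the p of 0.00833 is the smallest possible and no single relation could pass after adjustment, and at 0.9991 to 0.9998 with 1 left out. Ifitm10 with Hlf missed the threshold on ranks (-0.857) and ranged from -0.889 to -0.780; with WT 1, WT 2, WT 4 or Srp72+/- 1 left out it also missed it. Without the 2 farthest libraries it was -0.826 (exact permutation p = 0.0833), where 5 libraries again allowed no single relation to pass. Ifitm10 with S100a8 passed on ranks (0.929) and without WT 4 (0.938), within a range of 0.693 to 0.938. Ifitm2 with Hlf ranged from -0.670 to 0.0485. Ifitm2 with S100a8 turned to -0.042 on log2(TPM + 1) and -0.863 without the 2 farthest libraries, within -0.305 to 0.377. Ifitm3 with Hlf turned to 0.143 on ranks, 0.577 on log2(TPM + 1) and 0.106 without the 2 farthest, within -0.183 to 0.359.

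Depth limits Ifitm10, whose 3 reads in WT 1 equal the floor, and Ifitm6 in WT 1 (24 reads). With 3 against 4 libraries no exact permutation test can go below 0.0286.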

Other observations

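The start regions of the family differ in base composition as well as in motifs. The windows of Ifitm1, Ifitm2, Ifitm3 and Ifitm6 held 5, 4, 4 and 2 CG dinucleotides, beside a median of 6 over 32851 windows. The 3 windows of Ifitm10 held 29, 24 and 2, with 73.9%, 70.0% and 51.1% G and C against a median of 52.5%.

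Ifitm1 and Ifitm10 ran against each other, with r = -0.721 and rho = -0.786 (two-sided exact permutation p = 0.0589 and 0.048, adjusted over the 10 pairs of members 0.196 for r, n = 7). The value was -0.553 without WT 4 and Srp72+/- 1 (n = 5) and -0.616 without WT 2 (n = 6). Ifitm6 and Ifitm10 ran together, with r = 0.804 and rho = 0.929 (exact permutation p = 0.0298 and 0.00675, adjusted 0.149 for r), and r was 0.424 without WT 1 and WT 2 (n = 5).

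Markers of other blood cells varied with the libraries around these genes. Monocyte and macrophage genes include Csf1r, which was close to Ifitm6, but the relation of Ifitm6 to the whole list was not tested. These genes summed to 26.6 to 2653 CPM in WT and 178 to 1199 CPM in Srp72+/-, with Cd14 at 0 in 1 library, WT 1. Of these 14 genes 2 had higher and 12 lower fitted values in Srp72+/- (median log2 fold change -0.61), which became 1.35 with WT 2 left out, -1.48 with Srp72+/- 1 left out and -0.26 with Srp72+/- 3 left out. The other lists moved with single libraries too. Erythroid genes gave 13 higher and 1 lower (median 0.21), with a median of 3.30 without WT 2, -1.43 without Srp72+/- 1 and 0.76 without Srp72+/- 3. B cell genes gave 3 higher and 5 lower (-0.49), with 1.88, -1.95 and -0.15 in the same order. T and NK cell genes gave 4 higher and 7 lower (-0.24), with 0.48, -1.14 and 0.05. Genes of the sorting markers gave 4 higher and 6 lower (-0.28), with 0.22, -0.97 and -0.02. Endothelial and stromal genes gave 4 higher and 7 lower (-0.48), with -0.58, -0.81 and -0.44. Other dispanin genes gave 2 higher and 2 lower (-0.05), with -0.20, 0.03 and -0.22. All 13 megakaryocyte and platelet genes had higher fitted values (median 1.32), with 0.96, 1.72 and 0.09. No gene of these lists passed an FDR of 0.05 in edgeR.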
